A study of Homo sapiens with 36 samples.

Results

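Tubulin isotypes are the closely related gene products that build microtubules. The members described here were 10 listed genes: the alpha-tubulins TUBA1A, TUBA1B and TUBA1C, the beta-tubulins TUBB, TUBB2A, TUBB2B, TUBB3, TUBB4B and TUBB6, and the gamma-tubulin TUBG1. They were found by matching the gene identifiers of the count tables, without their version suffix, to GENCODE 29 symbols. All 10 were present among 58219 genes in each RNA table and among 43582 genes in each ribosome footprint table. The genes were chosen by name with the differences between actD and DMSO in these same libraries already known. Those differences are therefore descriptions: the tests printed beside them place a gene among all genes tested and are not independent support.

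The cells were WiT49, an established line from an anaplastic Wilms tumor, a childhood kidney cancer. They received 2 nM actinomycin D (actD), a DNA-binding inhibitor of transcription, or the vehicle DMSO. How far this dose lowered transcription was not measured here. Exposure lasted 6 h, 72 h or 2 weeks, the last as 2 cycles of 7 days with 3 days in drug or vehicle and 4 days in plain medium. Each treatment and time had 3 libraries of total RNA and 3 of ribosome footprints, the fragments of mRNA covered by translating ribosomes, for 36 libraries in 12 groups. All groups are the same cell line with no genetic change, and nothing says whether replicates were separate cultures, so the spread between libraries may be technical. The 2-week RNA libraries carry contradictory labels: the title and treatment fields name the opposite arm to the description and the column name. They are called here "named actD" and "named DMSO" after the column, and every 2-week RNA difference has the opposite sign under the titles.

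Microtubules are polymers of alpha-beta tubulin dimers, and cells carry several genes for each subunit whose proteins are alike over most of their length and differ most in the charged tail. Gamma-tubulin does not join the polymer wall and instead seeds new microtubules at the centrosome. Tubulin mRNA is under a feedback loop: when free dimers accumulate, a factor that recognises the start of a nascent alpha- or beta-tubulin chain triggers decay of the mRNA being translated. In adult tissue TUBB3 is best known from neurons and TUBB2A and TUBB2B from brain, whereas TUBB, TUBB4B, TUBA1B and TUBA1C are widely expressed in dividing cells.

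All 3 alpha members begin with the same 30 coding bases and the beta members with near variants of another start. The runs are shown because the nascent chain that the feedback loop reads is encoded by the first 4 codons, given in capitals, and because the stretches show how alike the members are. They are read 5′ to 3′ from GENCODE 29 transcripts of GRCh38.
TUBA1A, TUBA1B and TUBA1C: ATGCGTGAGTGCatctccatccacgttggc
TUBB: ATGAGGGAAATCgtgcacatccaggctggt
TUBB4B: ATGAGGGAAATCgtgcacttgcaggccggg
TUBB3: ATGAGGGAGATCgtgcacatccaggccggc
TUBB6: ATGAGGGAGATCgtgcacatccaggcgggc
TUBB2A: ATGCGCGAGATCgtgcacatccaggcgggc
TUBB2B: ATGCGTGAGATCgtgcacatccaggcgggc
TUBG1: ATGCCGAGGGAAatcatcaccctacagttg
TUBB and TUBB4B shared their first 12 bases, as did TUBB3 and TUBB6, while TUBB2A and TUBB2B each had a run of their own. TUBG1 stood apart, and its coding sequence was 51.0% to 54.8% identical to those of the other members.

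The last 60 coding bases, with the stop codon in capitals, are shown for TUBB2A and TUBB2B, the pair with the most alike coding sequences.
TUBB2A: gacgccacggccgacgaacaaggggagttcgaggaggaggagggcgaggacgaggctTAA
TUBB2B: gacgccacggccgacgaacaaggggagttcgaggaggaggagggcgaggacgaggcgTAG
TUBB2A and TUBB2B differed at 25 positions (98.1% identity), 2 of them there. TUBA1A and TUBA1B differed at 38 aligned positions of the coding sequence (97.2% identity) and TUBA1B and TUBA1C at 43. A footprint is about as long as the shorter runs above, so a read from a stretch that 2 genes share does not show by itself which gene it came from.

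The share of each coding sequence that recurs elsewhere was counted over every window of 30 bases and of 100 bases. TUBB6 was the most distinct, with 10.6% of its 30-base windows found in transcripts of another gene, followed by TUBB4B at 25.3% and TUBG1 at 47.9%, mostly in its copy TUBG2. TUBB shared 57.2%, nearly all with pseudogenes and 48.1% with TUBBP1, and 1.15% with other members. TUBA1A shared 73.9%, TUBA1C 73.4%, TUBB2B 81.6%, TUBB2A 84.0% and TUBA1B 86.8%. TUBB3 shared 97.4%, because the annotated gene AC092143.1 overlaps TUBB3 by 14701 bases on the same strand and holds 95.8% of its windows. At 100 bases the shares were 0% for TUBB6, 3.55% for TUBB4B, 10.6% for TUBB, 45.2% for TUBA1B, 71.7% for TUBB2B and 95.6% for TUBB3.

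**Figure D1:**
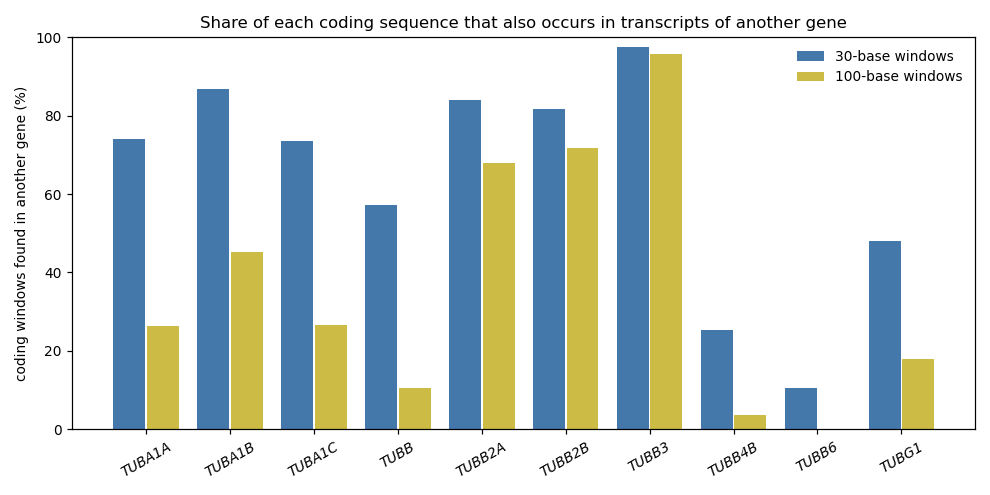
Percentage of the 30-base (blue) and 100-base (yellow) windows of each member's coding sequence that also occur in a GENCODE 29 transcript of another gene. TUBB6 is lowest at 10.6% and 0%, and TUBB3 is highest at 97.4% and 95.6%.

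On GRCh38 the alpha members sit together on chromosome 12: TUBA1B at 49127782 to 49131397 and TUBA1A at 49184796 to 49189324 on the minus strand, and TUBA1C at 49188736 to 49274603 on the plus strand, where it overlaps TUBA1A by 589 bases. TUBB lies on chromosome 6 at 30720201 to 30725426 (plus strand). The pair TUBB2A (3153669 to 3157526) and TUBB2B (3224261 to 3231730) is on the minus strand of the same chromosome. TUBB3 is on chromosome 16 at 89921392 to 89938761, TUBB4B on chromosome 9 at 137241213 to 137243707, TUBB6 on chromosome 18 at 12307669 to 12344320 and TUBG1 on chromosome 17 at 42609676 to 42615234, all on the plus strand. The alpha and beta transcripts used have 4 exons each and that of TUBG1 has 11. The sources used here do not say whether counting used strand, so reads of TUBA1A and TUBA1C in their overlap, or of TUBB6 and AFG3L2, which overlap by 15377 bases on opposite strands, may not have been told apart.

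RNA libraries held 40221994 to 69240041 estimated counts each and footprint libraries 152556 to 1281039, of which 23134 to 283435 fell in protein-coding genes. The members took 0.331% to 1.06% of protein-coding counts in RNA, 87144 to 531152 counts per library, and 86 to 925 counts in footprints. Levels are given as CPM, each library's counts scaled to a common total with TMM factors, within each table. A count of 3, used as the lowest level that can be told from 0, corresponded to 0.0435 to 0.0801 CPM in RNA and 2.70 to 37.3 CPM in footprints, and covers counting error only. Of the markers fixed for the tissue, IGF2 lay at 1020 to 2360 CPM, WT1 at 3.77 to 37.6 and NCAM1 at 7.14 to 24.7, whereas SIX2, PAX2, CITED1, SALL1 and EYA1 stayed below 1 CPM in every RNA library. Of the epithelial markers, KRT8 (567 to 4280 CPM) and KRT18 (328 to 2580) were high. EPCAM, LHX1, CDH1 and PAX8 had medians of only 10.4, 2.0, 1.03 and 0.0654 CPM. Of the stromal and muscle markers, COL1A1 (346 to 818) and VIM (157 to 436) were high. PDGFRB and DES had medians of 46.5 and 8.71 CPM, and MYOD1 was at 0 throughout. The leukocyte and endothelial markers PTPRC, CD3E, PECAM1 and CDH5 had a median of 0, while CD68, a macrophage marker, had a median of 1.1 CPM. The neuronal markers RBFOX3, SNAP25 and SYP had medians of 0.513, 1.48 and 2.97 CPM.

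Per kilobase of exon, TUBB and TUBA1B led the RNA of these cells at every time. In vehicle at 6 h TUBB stood at a mean of 723.5 CPM per kb (610.5 to 803.2, n = 3) and TUBA1B at 651.2 (543.3 to 813.3), with overlapping ranges. TUBB4B (242.2) and TUBA1C (223.2) followed and overlapped each other, then TUBB2B (67.8), TUBB2A (66.8), TUBG1 (59.9) and TUBA1A (41.4), each overlapping its neighbour. TUBB6 (18.1) and TUBB3 (9.08) were lowest and did not overlap. At 72 h in vehicle TUBA1B (486, from 367.4 to 582.7) and TUBB (418, from 347.5 to 494) again overlapped, and TUBB3 (7.09) and TUBB6 (6.23) closed the list. At 2 weeks in the named DMSO libraries TUBB (282.7 ± 12.9) lay above TUBA1B (176.4 ± 7.91) with no overlap, and TUBB6 was lowest at 2.69. The tables were scaled separately and their gene counting may differ, so the lower level of most members at later times was not tested.

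TUBA1B made up 71.1% ± 0.2 (SD, n = 3) of alpha RNA per kb in vehicle at 6 h, 73.9% ± 1.28 at 72 h and 68.4% ± 3.7 at 2 weeks (named DMSO). TUBB made up 64.1% ± 1.02, 74.4% ± 5.68 and 74.5% ± 0.416 of beta RNA per kb. With length taken from the longest transcript in place of merged exons, the TUBA1B shares were 63.5%, 66.6% and 60.1%.

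After 6 h of actD, TUBB3 RNA, the beta-tubulin best known from neurons, was 3.45 times its vehicle mean. Of the other 9 members, 7 had log2 differences between -0.18 and 0.16, and TUBA1A (-0.73) and TUBB6 (-0.54) had overlapping groups. TUBB3 read 124, 140 and 152 CPM with actD and 39.4, 50.6 and 30.6 CPM with DMSO. Every actD library lay above every DMSO library. The log2 difference was 1.78 (SE 0.19), and TUBB3 ranked 4 of 22669 genes by p. In this comparison edgeR's quasi-likelihood test gave a Benjamini-Hochberg adjusted p of 0.0596, which missed the threshold of 0.05. DESeq2 called it (adjusted p = 5.76e-14), as did edgeR without DMSO library 2 (adjusted p = 0.0459). Over its 13 alternatives the log2 difference ran from 1.62 to 1.97 and the adjusted p from 5.76e-14 to 0.517.

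TUBB3 shares 95.8% of its 30-base coding windows with AC092143.1, an annotated gene that overlaps both TUBB3 and its upstream neighbour MC1R, a pigment-cell receptor gene. In all 6 RNA libraries of 6 h AC092143.1 was listed at 0. MC1R itself lay at 11.1, 11.2 and 10.6 CPM with actD and 10.2, 10.9 and 10.5 CPM with DMSO. The MC1R values of the arms overlapped. In footprints the listing was reversed, with TUBB3 at 0 and AC092143.1 above 0 in all 18 libraries. How reads were divided between these overlapping genes was not tested.

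Of 10 members tested in RNA at 6 h, edgeR called 0, against 0% of the 22669 genes tested (0 genes), and DESeq2 called 1, TUBB3, against 0.9% (204 genes). At an unadjusted p under 0.05, edgeR had 1 of 10 members, against 8.21% of genes. The median log2 difference was -0.005 over the members and 0.02 over all genes. TUBB3 was the only member whose groups did not overlap, against 15.8% of genes, 7.66% in the higher and 8.17% in the lower direction.

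Among the alpha genes at 6 h, TUBA1A gave a log2 difference of -0.73 (SE 0.41, edgeR adjusted p = 0.702). DMSO library 1 stood at 254 CPM, beside 100.4 and 70.6 in the other vehicle libraries and 77.1 to 93.9 with actD. The same library was the highest vehicle library for every member except TUBB3. It stood at 2907 against 2134 and 1942 CPM for TUBA1B, and at 113 against 58.5 and 51.1 CPM for TUBB6. For TUBB it stood at 2698 against 2542 and 2051 CPM, and for TUBG1 at 159 against 145 and 129 CPM. TUBB6 gave -0.54 (SE 0.27, adjusted p = 0.666) and TUBA1B -0.18 (SE 0.18). TUBA1C, TUBB, TUBB4B and TUBG1 lay between -0.04 and 0.01, and TUBB2A and TUBB2B at 0.16 and 0.09. The sum of the alpha genes was 3170 ± 381 CPM with actD and 3503 ± 749 with DMSO, and the sum of the beta genes 3354 ± 291 and 3320 ± 443 (SD, n = 3).

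**Figure D2:**
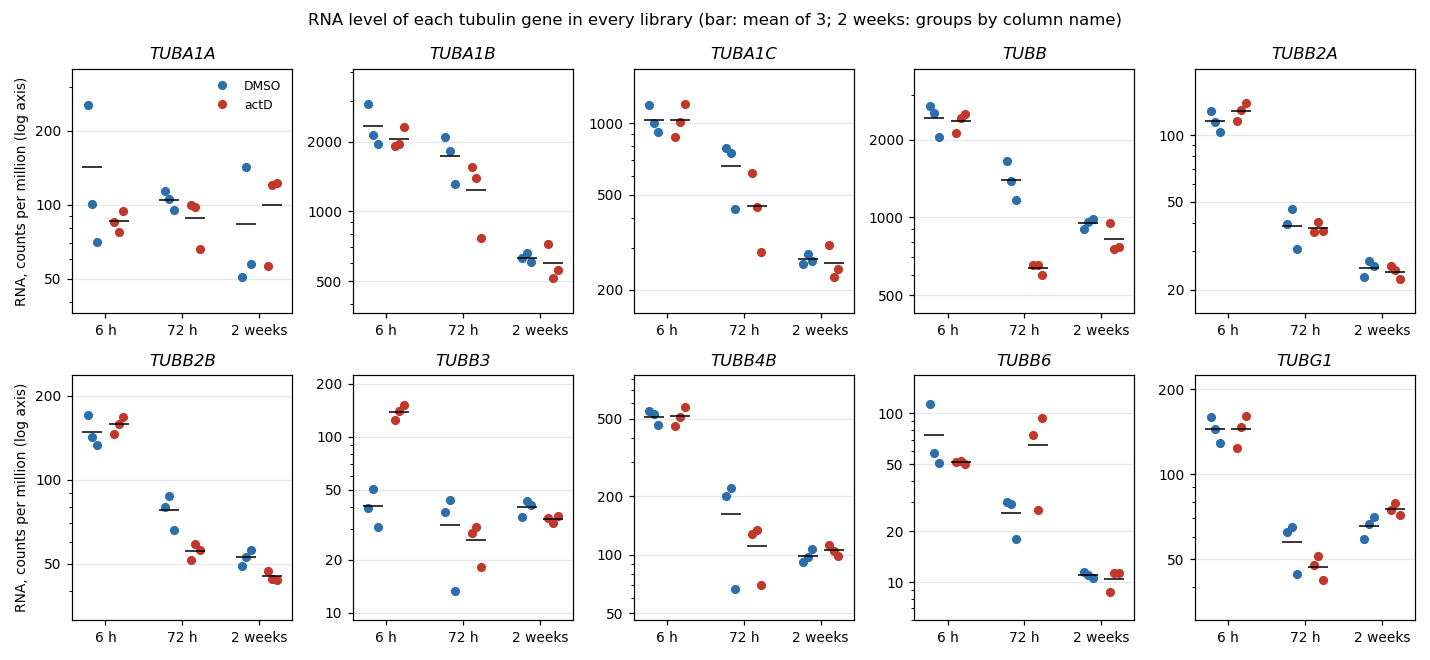
RNA level (CPM, log axis) of each member in each of the 18 RNA libraries, DMSO in blue and actD in red, with a bar at the mean of 3. The groups lie apart for TUBB3 at 6 h (124 to 152 against 30.6 to 50.6) and for TUBB at 72 h (596 to 656 against 1167 to 1660); the 2-week arms follow the column names.

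After 72 h of actD, the mean of TUBB RNA, the most abundant beta-tubulin of these cells, was 2.21-fold below that of vehicle (636 ± 34.7 against 1404 ± 247 CPM, SD, n = 3), while TUBB6 lay above the vehicle range in 2 of 3 libraries. TUBB read 656, 656 and 596 CPM with actD and 1660, 1385 and 1167 CPM with DMSO, and the groups did not overlap. The log2 difference was -1.14 (SE 0.23), with an edgeR adjusted p of 0.209, short of the threshold. DESeq2 called TUBB lower (adjusted p = 0.000181), and so did edgeR with the spread estimated over all 18 RNA libraries (adjusted p = 0.00165). Across the alternatives the log2 difference kept between -1.26 and -1.02, and the adjusted p ran from 0.000181 to 0.653.

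The pseudogene TUBBP1 shares 48.1% of TUBB's 30-base coding windows and stood at 27.8, 32.1 and 26.3 CPM with actD and 66.2, 53.7 and 64.0 CPM with DMSO at 72 h. Its log2 difference was -1.09 (SE 0.19, edgeR adjusted p = 0.19), close to that of TUBB. At 6 h both were near their vehicle level, TUBBP1 at -0.03 and TUBB at -0.04. Whether TUBBP1 counts are reads of TUBB was not tested.

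TUBB6 read 74.8, 26.6 and 94.5 CPM with actD at 72 h and 30.01, 29.01 and 17.96 CPM with DMSO. Replicate 2 of actD lay inside the vehicle range, and the others were above it. The log2 difference was 1.35 (SE 0.45) with an edgeR adjusted p of 0.306, DESeq2 gave an adjusted p of 0.0927, and the fit over 18 libraries called it (0.0401). Over 14 alternatives the log2 difference ran from 0.78, without replicate 3 of both arms, to 1.72, and the adjusted p from 0.0401 to 0.653. TUBB2B, a near copy of TUBB2A, read 51.6, 58.9 and 56.3 CPM with actD and 80.0, 87.6 and 65.9 with DMSO, with no overlap (log2 difference -0.49, SE 0.19, adjusted p = 0.344). TUBB2A stayed level at 36.7, 40.6 and 36.8 against 39.6, 46.3 and 30.7 CPM (-0.03, SE 0.21).

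The alpha genes and TUBB4B had overlapping groups at 72 h. TUBA1B read 1547, 1388 and 768 CPM with actD and 2083, 1815 and 1313 with DMSO (-0.49, SE 0.33). TUBA1C read 617, 444 and 287 against 789, 748 and 436 (-0.55, SE 0.35), and TUBB4B 127, 134 and 70.1 against 201, 221 and 66.8 (-0.56, SE 0.46). Library 3 was the lowest of its arm for each of these genes in both arms. The same held for TUBB, TUBA1A, TUBB3 and TUBG1, but not in both arms for TUBB2A, TUBB2B or TUBB6. The main fit used no replicate block. TUBA1A (-0.25, SE 0.22), TUBB3 (-0.28, SE 0.43) and TUBG1 (-0.28, SE 0.21) also had overlapping groups.

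Of 10 members tested in RNA at 72 h, edgeR called 0, against 0.00472% of the 21195 genes (1 gene), DESeq2 called 1 (TUBB), against 2.85%, and the fit over 18 libraries called 2 (TUBB lower, TUBB6 higher), against 4.89%. At an unadjusted p under 0.05 there were 3 members (TUBB, TUBB2B and TUBB6), against 13.1% of genes. TUBB and TUBB2B were the members with groups apart, both lower, against 20.9% of genes in either direction and 10.3% in that direction. In all, 9 of 10 log2 differences were below 0, with a median of -0.38, against 48.6% of all genes and a median of 0.02. Leaving out each library in turn gave 7 to 9 members below 0 and medians from -0.63 to -0.23. Without replicate 3 of both arms, chosen after seeing the data, 9 members were below 0, the median was -0.44, and TUBB had a log2 difference of -1.22 (adjusted p = 0.0508).

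**Figure D3:**
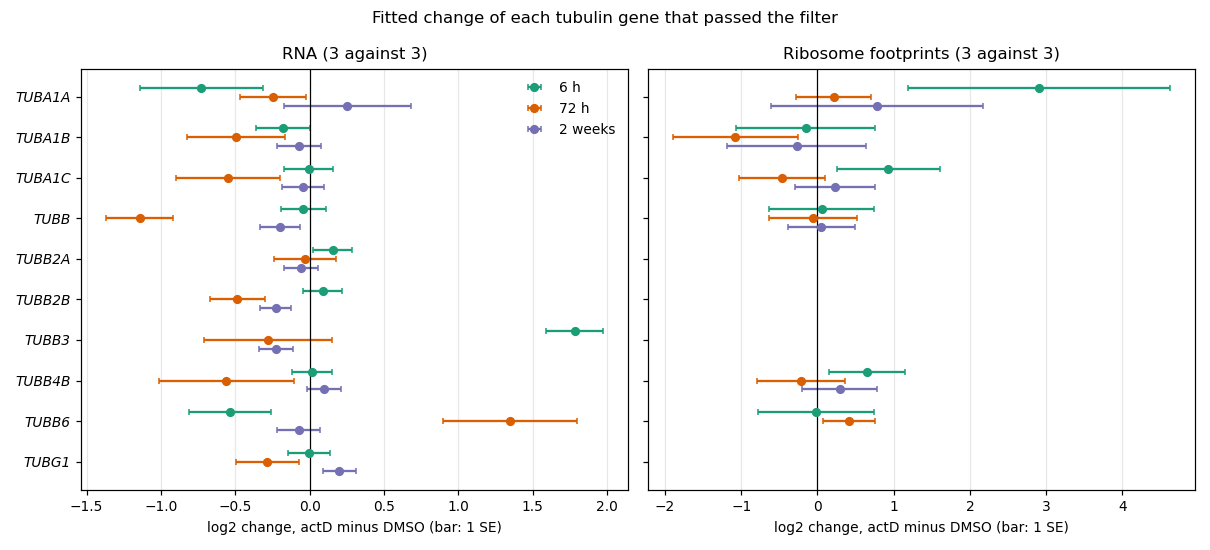
Log2 difference, actD minus DMSO, in RNA (left) and in footprints (right) at 6 h, 72 h and 2 weeks. Each member that passed the filter is shown with 1 standard error, approximated from the test's F statistic. TUBB3 at 6 h (1.78), TUBB at 72 h (-1.14) and TUBB6 at 72 h (1.35) stand out in RNA; the footprint axis is wider because its errors are larger.

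The sum of the beta genes in RNA at 72 h was 931.2 ± 53.3 CPM with actD and 1741 ± 348 with DMSO (SD, n = 3), with no overlap, a log2 ratio of -0.90. TUBB held 61.0% ± 1.18 of beta RNA per kb with actD and 74.4% ± 5.68 with DMSO, and these ranges (60.1% to 62.3%, and 68.7% to 80.0%) did not overlap. TUBB6 held 5.22% ± 3.05 and 1.09% ± 0.0846, TUBB2A 7.10% ± 0.502 and 4.00% ± 0.512. At 6 h the TUBB share was 61.8% ± 0.753 with actD and 64.1% ± 1.02 with DMSO. The alpha sum at 72 h was 1772 ± 588 against 2499 ± 589 CPM with overlapping groups, and the split among alpha genes was alike in both arms (TUBA1B 73.7% and 73.9%). Adding the pseudogenes left the ratio at -0.91 for beta and -0.49 for alpha, although TUBAP2, an alpha pseudogene, held 48.4 to 127 CPM at 72 h.

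**Figure D4:**
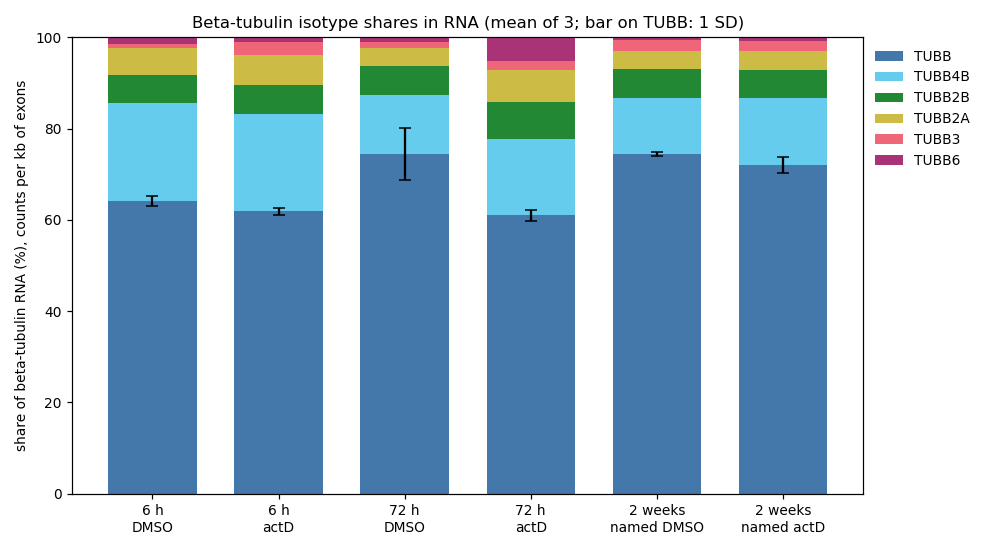
Mean share (%) of each beta-tubulin gene in beta RNA per kb of exon, for the 6 RNA groups (n = 3 each), with 1 SD on the TUBB share. TUBB holds 74.4% with DMSO and 61.0% with actD at 72 h; the 2-week arms follow the column names.

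At 2 weeks the median log2 difference of the members was -0.06, against -0.02 over all genes, and 7 of 10 were below 0. Scaling to library totals moved both medians, to -0.21 and -0.18, with 8 members and 73.7% of genes below 0. With that scaling edgeR had 3 of 10 members at an unadjusted p under 0.05, against 13.1% of genes. It called 0 members, against 0.0284% of genes. The beta sum then had groups apart (log2 ratio -0.32, against -0.17 with overlap). With named actD minus named DMSO, TUBB2B read 47.2, 44.3 and 43.7 CPM against 49.0, 53.1 and 56.2 (-0.23, SE 0.10, edgeR adjusted p = 0.573). TUBG1, the microtubule seed, read 74.7, 79.1 and 71.4 against 59.0, 66.7 and 70.4 (0.20, SE 0.11, adjusted p = 0.639). These were the members whose groups did not overlap, 1 in each direction, against 15.7% of genes, 7.86% higher and 7.83% lower. TUBB gave -0.20, TUBB3 -0.23, TUBA1A 0.25 (SE 0.43), TUBB4B 0.10, and TUBA1B, TUBA1C, TUBB2A and TUBB6 lay between -0.07 and -0.05. TUBA1A was high in 3 libraries that belong to both named arms (120, 122 and 142 CPM) and low in the other 3 (50.9 to 57.5 CPM). Of 10 members edgeR called 0, against 0% of 21137 genes, had 0 at an unadjusted p under 0.05 (against 8.93%), and DESeq2 called 0 (against 0.932%).

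A test of the difference between times was possible in RNA for 72 h against 6 h. The log2 difference of TUBB3 at 72 h minus that at 6 h was -2.09 (SE 0.51, edgeR adjusted p = 0.321). That of TUBB was -1.12 (SE 0.27, adjusted p = 0.3) and that of TUBB6 was 1.88 (SE 0.59, adjusted p = 0.479). With TUBB2B (-0.59, SE 0.23) this made 4 of 10 members at an unadjusted p under 0.05, against 8.02% of genes, and 0 called, against 0.0165% (4 genes). DESeq2 called TUBB3 (adjusted p = 0.0211) and TUBB (0.0115), against 0.652% of genes, and edgeR called TUBB3 without DMSO library 3 of 72 h (0.0408). The 6 h and 72 h tables were counted separately, so a difference in counting between them cannot be told apart from time for levels, but both arms of a table share it.

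Ribosome footprints were thin, and several members were listed at or near 0. TUBB3 was listed at 0 in all 18 footprint libraries, while AC092143.1, which contains nearly all of its coding windows, held 2 to 31 counts in every one. In RNA the reverse was found: TUBB3 was counted in all libraries, and AC092143.1 was above 0 in 1 (4.94 CPM, named actD library 2 of 2 weeks). AC092143.1 footprints at 6 h numbered 8, 7 and 12 with actD and 20, 10 and 4 with DMSO, or 16.5, 18.5 and 27.0 against 20.4, 12.99 and 10.5 CPM, and the groups overlapped. No footprint value of TUBB3 can therefore be set beside its RNA, and how reads were divided between these overlapping genes was not tested.

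TUBB2B was listed at 0 in 16 of 18 footprint libraries and TUBB2A in 13. In the 5 libraries where TUBB2A was counted it had 3 to 48 counts, and at 72 h it had 46, 0 and 48 counts with actD and 0, 0 and 3 with DMSO. RNA of TUBB2A was even at that time, between 30.7 and 46.3 CPM in all 6 libraries. TUBA1A was listed at 0 in 3 libraries and reached 90 counts in another. The RNA tables list all 38 annotated tubulin pseudogenes and the footprint tables list 0 of 38, with 570 of 15224 pseudogenes of any kind against 15086 in RNA.

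TUBA1A and TUBA1B, whose coding sequences are 97.2% identical, split the alpha footprints differently from library to library. At 2 weeks TUBA1A had 5, 90 and 7 counts with actD and TUBA1B 79, 8 and 129 in the same libraries. With DMSO they had 38, 0 and 9 against 41, 95 and 131. Over the 18 footprint libraries TUBA1A took 0% to 49.2% of alpha counts and TUBA1B 4.37% to 62.5%, while in RNA TUBA1A took 2.41% to 13.9% and TUBA1B 60% to 71.9%. Among the 2-week actD libraries the coefficient of variation was 138% for TUBA1A, 93.6% for TUBA1B, 28.9% for TUBA1C and 34.9% for their sum. This order did not hold in every group: at 72 h with actD it was 23.5% for TUBA1A, 110% for TUBA1B, 30.9% for TUBA1C and 51.1% for the sum. The sum at 72 h was 806 ± 412 CPM with actD and 1280 ± 592 with DMSO, with overlapping groups.

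**Figure D5:**
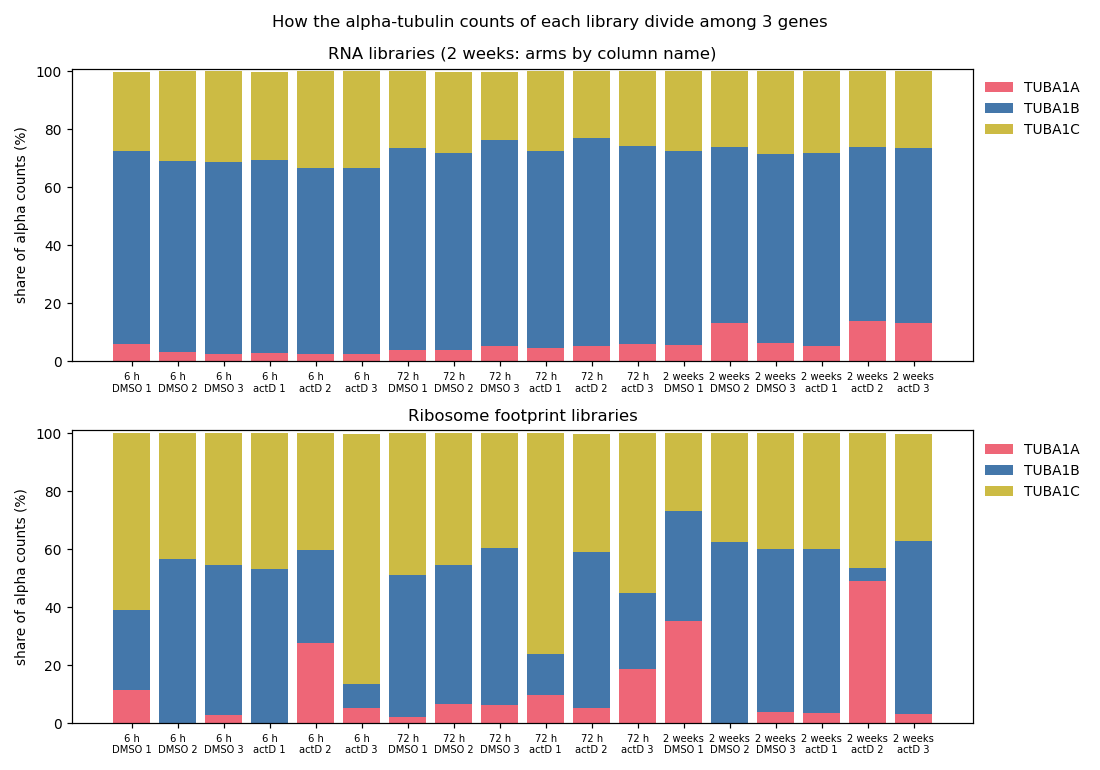
Share (%) of the counts of TUBA1A, TUBA1B and TUBA1C in each library, RNA above and footprints below, uncorrected for length. TUBA1B holds 60% to 71.9% in every RNA library but 4.37% to 62.5% in footprints.

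No member changed past the threshold in footprints. At 72 h TUBB6 footprints, from the most distinct coding sequence of the set, were 129.9, 108.8 and 91.6 CPM with actD (87, 40 and 77 counts) and 90.5, 87.2 and 62.2 CPM with DMSO (40, 26 and 5 counts). The groups did not overlap, against 35.7% of genes in either and 19.5% in the higher direction, and the log2 difference was 0.42 (SE 0.34, edgeR adjusted p = 0.447). TUBB footprints were 140, 549 and 227 CPM with actD and 260, 426 and 261 with DMSO (-0.06, SE 0.58). TUBA1B gave -1.08 (SE 0.82), TUBA1C -0.47 (SE 0.56), TUBB4B -0.22 (SE 0.57) and TUBA1A 0.21 (SE 0.49). TUBB2A, TUBB2B, TUBB3 and TUBG1 (2 to 17 counts) did not pass the filter.

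At 6 h the 6 members that passed gave log2 differences from -0.15 (TUBA1B) to 2.91 (TUBA1A, SE 1.72, with counts of 0, 77 and 13 against 17, 0 and 5). TUBA1C gave 0.93 (SE 0.68), TUBB4B 0.65 (SE 0.50), TUBB 0.05 and TUBB6 -0.02. At 2 weeks 5 members passed, TUBB6 with 3 to 7 counts not among them, and gave -0.27 (TUBA1B) to 0.78 (TUBA1A), with TUBB4B at 0.29, TUBA1C at 0.23 and TUBB at 0.05. No member had groups apart at 6 h, against 9.41% of genes (3.71% higher, 5.69% lower), nor at 2 weeks, against 14.9% (8.32% higher, 6.57% lower). By edgeR, members called were 0 of 6 at 6 h against 0% of 1212 genes, 0 of 6 at 72 h against 3.79% of 2426, and 0 of 5 at 2 weeks against 0% of 1598. None had an unadjusted p under 0.05, against 3.14%, 27.3% and 8.57% of genes, and DESeq2 called 0 members at each time, against 0.99%, 4.41% and 0% of genes. SEs of the members' footprint differences were 0.34 or more. Scaling to library totals moved the median of all genes in footprints at 6 h from 0.11 to -0.61 and that of the members from 0.35 to -0.20.

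Translational efficiency was taken as the footprint difference minus the RNA difference, in 1 model over both assays. For TUBB at 72 h it was 0.92 (SE 0.62, edgeR adjusted p = 0.512), from an RNA difference of -1.14 and a footprint difference of -0.06 (SE 0.58). For TUBB6 it was -1.11 (SE 0.56, adjusted p = 0.378), from 1.35 and 0.42. TUBA1B gave -0.77, TUBA1A 0.30, TUBB4B 0.12 and TUBA1C -0.11. At 6 h TUBA1A gave 3.68 (SE 1.62, adjusted p = 0.878), from the uneven counts given above, and TUBA1C, TUBB4B, TUBB6, TUBA1B and TUBB gave 0.84, 0.59, 0.40, 0.10 and -0.01. At 2 weeks, with RNA arms by column name, the 5 members lay between -0.28 and 0.59, with 1 below 0. By edgeR, members called were 0 at each time, against 0%, 0.433% and 0% of genes. DESeq2 also called 0 members, against 0.105%, 2.6% and 0.0694% of genes. TUBA1A at 6 h was the member with an unadjusted edgeR p under 0.05 (against 5.26% of genes at 6 h, 14.9% at 72 h and 5.14% at 2 weeks). With RNA groups from the titles at 2 weeks, 2 of 5 members were below 0. In that edgeR fit 0 members were called, against 1.87% of genes, and 0 had an unadjusted p under 0.05, against 20.7%.

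Differences of the footprint effect between times were also short of the threshold. For 72 h against 6 h the 7 members tested gave -2.69 (TUBA1A, SE 1.80) to 1.61 (TUBG1, SE 1.26), with TUBA1C at -1.23, TUBA1B at -0.82, TUBB4B at -0.72, TUBB at 0.08 and TUBB6 at 0.63. For 2 weeks against 72 h TUBB6 gave -0.79, TUBG1 -0.04, TUBB -0.04, TUBB4B 0.39, TUBA1A 0.49, TUBA1C 0.57 and TUBA1B 0.65. TUBB2A was also tested (edgeR adjusted p = 0.659), but its actD libraries at 2 weeks were all listed at 0, so no fitted size is given. The calls were 0 of 7 against 0% of genes and 0 of 8 against 0.0532%, with 0 and 0 at an unadjusted p under 0.05 (against 6.54% and 7.5%), and 0 by DESeq2 (against 0.199% and 0.293%).

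The ratio of footprints to RNA, each per kb and in vehicle, was set against that of TUBB. At 72 h it was 16.9 times that of TUBB for TUBB6, 5.41 for TUBA1C, 3.29 for TUBB4B, 2.62 for TUBA1A and 1.69 for TUBA1B. For TUBG1 it was 1.17, for TUBB2A 0.73, and for TUBB2B and TUBB3, both listed without vehicle footprints, 0. These are ratios of group means, without a spread. The vehicle footprints at 72 h were 4, 9 and 2 counts for TUBG1 and 0, 0 and 3 for TUBB2A, and neither passed the filter. TUBB6 was also highest at 6 h (5.77) and at 2 weeks (6.85), and TUBG1 was at 0.355 and 0.286. At 2 weeks the RNA side of these ratios is the named DMSO libraries, which the titles give as actD. TUBB6 then had 6, 6 and 5 vehicle footprint counts and did not pass the filter. With the longest transcript as RNA length, chosen after seeing the data, the TUBB6 ratios were 3.51, 10.3 and 4.17 at 6 h, 72 h and 2 weeks, and that of TUBA1A at 72 h was 1.7. The coding sequence of TUBB6 has 89.4% of 30-base windows to itself. The figure was 74.7% for TUBB4B, 52.1% for TUBG1, 42.8% for TUBB, 26.6% for TUBA1C and 26.1% for TUBA1A. It was 18.4% for TUBB2B, 16.0% for TUBB2A, 13.2% for TUBA1B and 2.57% for TUBB3. The part of this sharing in the ratios was not tested.

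Genes that act on tubulin were followed as fixed lists, drawn up with earlier results known. In RNA at 72 h edgeR called 0 genes of every list. The tubulin folding genes (the CCT chaperonin, prefoldin and tubulin cofactors) had 17 of 20 tested differences below 0, against 48.6% of all genes, with a median of -0.27, and 5 of them lower at an unadjusted p under 0.05, against 13.1% of genes in either direction. Microtubule-associated and dynamics genes had 22 of 27 below 0 with a median of -0.31 and 8 lower at that p, and the gamma-tubulin ring complex 8 of 12 with a median of -0.15 and 2 lower at that p. Tubulin modification (9 of 17, -0.11), other tubulin genes (5 of 8, -0.04) and the autoregulation factors (3 of 5, -0.01) lay nearer to the median of all genes (0.02). At 6 h and 2 weeks the medians of these lists stayed between -0.09 and 0.04. Microtubule-associated genes nonetheless had 7 of 27 lower at an unadjusted p under 0.05 at 6 h, against 8.21% of genes in either direction, and 5 of 27 at 2 weeks, against 8.93%.

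The genes with the smallest p in each list at 72 h in RNA had edgeR adjusted p values of 0.265 or more. CCT3, a chaperonin subunit that folds tubulin, was at 306.6 ± 29.3 CPM with actD and 528.6 ± 93.1 with DMSO (-0.79, SE 0.22). TBCD, a cofactor that assembles the dimer, gave -1.06 (SE 0.32). MAP4, which stabilises microtubules, gave -0.76 (SE 0.21) and CKAP5, a polymerase of microtubule ends, -1.27 (SE 0.40). CDK5RAP2 and TUBGCP3 of the gamma-tubulin machinery gave -0.72 (SE 0.23) and -0.55 (SE 0.19). SCAPER, which links the feedback factor to the deadenylase that removes the tail of tubulin mRNA, gave -0.94 (SE 0.27), and CNOT7, a deadenylase subunit, 0.32 (SE 0.21). TTLL1, a tubulin glutamylase subunit, gave -1.37 (SE 0.62), HDAC6, a tubulin deacetylase, -0.54 (SE 0.25), TUBA4A -1.30 (SE 0.40) and TUBA8 -0.86 (SE 0.57).

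In footprints at 72 h, edgeR called 2 of 9 tested microtubule-associated genes, both lower, against 3.79% of genes tested in either direction. Of the 9 log2 differences, 5 were below 0 and 4 above. CKAP5 stood at 36.2 ± 17.1 CPM with actD and 298.7 ± 204 with DMSO (SD, n = 3), a log2 difference of -3.04 (SE 0.61, edgeR adjusted p = 0.0473). MAP4 stood at 41.1 ± 7.72 and 122.1 ± 14.8 CPM (-1.54, SE 0.33, adjusted p = 0.0479). CKAP5 was also lower at the other times, short of the threshold: its RNA gave -0.97 at 6 h (SE 0.15, adjusted p = 0.122) and -1.10 at 2 weeks in the named arms (SE 0.27, 0.399), and its footprints -1.78 at 6 h (SE 0.46, 0.889) and -1.93 at 2 weeks (SE 0.39, 0.527). MAP4 footprints gave -0.36 and -0.30 at those times. Of 13 alternatives, 5 called CKAP5 (adjusted p from 0.002 to 0.231) and 4 called MAP4 (0.0341 to 0.342), with log2 differences below 0 in each. Neither was called with scaling to library totals, with a looser filter, with a replicate block, or after leaving out any 1 library other than actD library 3. Of the other lists 0 genes were called. TBCD gave -1.20 (SE 0.32, adjusted p = 0.0735), PFDN5, a prefoldin subunit, 1.22 (SE 0.48), CNOT1, the scaffold of the deadenylase complex, -0.66 (SE 0.34), CNOT11 0.15 (SE 0.37), MZT2B and PCNT of the centrosome 1.19 (SE 0.66) and -0.59 (SE 0.36), and TUBB4A -0.41 (SE 0.36).

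Across the 18 RNA libraries, with each table centred on its own mean, TUBA1B and TUBA1C moved most alike of all member pairs (Pearson r = 0.946). TUBB and TUBB6 ran opposite (r = -0.50), and TUBB6 had r = 0.03 with the mean of the 9 alpha and beta members. The protein-coding genes outside the lists that were most like that mean, of 19404 genes compared, were PGAM4 (r = 0.905), ALYREF (0.903), PGAM1 (0.882), RANBP1 (0.879) and SNRPB (0.876). PGAM4 and PGAM1 are near copies and may share reads. The same goes for TUBA1B and TUBA1C, whose coding sequences are 96.8% identical. These values describe 18 libraries that share their scaling, and no p is given. Both arms of a table were centred on the same mean, so the differences between actD and DMSO are part of every r. Each alpha or beta member is also part of the mean it was set against.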

How the data were processed

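Gene-level estimated counts of 18 total RNA and 18 ribosome footprint libraries were used as deposited, in 1 table per assay and time. The authors made these estimated counts with HISAT2 and StringTie on hg38, per the submitters' processing notes, and their versions and any use of strand are not given in the sources used here. Values were already whole, so rounding changed nothing. The members and the gene lists were chosen with earlier results of these data known.

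Each comparison of actD minus DMSO was fitted alone with edgeR 4.0.16 in R 4.3.3 (TMM scaling, filterByExpr, quasi-likelihood test, Benjamini-Hochberg over all genes tested, threshold 0.05). Translational efficiency and differences between times were interaction terms. For edgeR fits the SE is the log2 difference, without its sign, divided by the square root of the test's F statistic. It is therefore an approximation. All 10 members passed the filter in RNA. In footprints 6, 6 and 5 passed at 6 h, 72 h and 2 weeks. The named companion genes are the 2 with the smallest p in each list at 72 h. Alternatives were DESeq2 1.42.0, other scalings and filters, protein-coding genes only, 1 fit over the 18 libraries of an assay, a replicate block, each library left out and, for 2-week RNA, groups from the titles. Leaving out replicate 3 of both arms at 72 h was added after seeing the data. The fits were tested on simulated data.

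Gene identifiers matched GENCODE 29 without version for 57836 of 58219 RNA and 43270 of 43582 footprint entries, and sequences and coordinates are from GENCODE 29 on GRCh38. Levels between genes were divided by merged exon length (RNA) or coding length (footprints).

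Replicate numbers are shared between groups, but same-numbered libraries did not deviate together in every pair, so the numbers were not taken as pairs.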

Additional observations from a re-analysis of the deposited data

How the results depend on the processing

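Of 10 members, DESeq2 called 1 in RNA at 6 h (TUBB3), 1 at 72 h (TUBB) and 2 for 72 h against 6 h (TUBB3 and TUBB), and the fit over 18 libraries called 2 at 72 h (TUBB and TUBB6), where the main edgeR fits called 0. Leaving out each library gave 0 to 1 members in RNA at 6 h and 0 to 1 for 72 h against 6 h, and 0 in each other comparison. The replicate block called 0 members and 0 genes in all 12 comparisons (lowest edgeR adjusted p of a member in RNA 0.517 at 6 h and 0.266 at 72 h). The numbers were not shown to pair the samples, so whether a block suits these libraries is not known. Of 36 samples, 15 correlated best with their own number, from 0 of 6 at 6 h to 6 of 6 in RNA at 72 h. That is a hint from the data and not the design. In RNA at 72 h the SE was smaller with the block for every member except TUBB6 (0.45 without, 0.50 with). For TUBA1C it was 0.35 without and 0.21 with the block (edgeR adjusted p = 0.327 with it), and for TUBA1B 0.33 and 0.24. With the longest transcript as length, the vehicle share of TUBA1B was 63.54% at 6 h and 66.61% at 72 h (main 71.12% and 73.91%). In the named DMSO libraries of 2 weeks the share of TUBA1B was 60.09% (main 68.44%) and that of TUBB 73.91% (main 74.47%). Of 1286 member values under alternatives 116 changed sign, and 0 of these were past the threshold in either fit. Titles in place of column names reversed the sign of every 2-week RNA value (TUBB2B 0.23, TUBG1 -0.20) with 0 members called.

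Counts over all genes moved more: RNA at 6 h 0 (0 to 204), at 72 h 1 (0 to 1212) and at 2 weeks 0 (0 to 197). Footprints gave 0 (0 to 12) at 6 h and 92 (0 to 282) at 72 h, the highest without actD library 3. Translational efficiency gave 0 (0 to 5), 10 (0 to 60) and 0 (0 to 27, the highest with RNA groups from the titles), RNA for 72 h against 6 h 4 (0 to 158), and the footprint differences between times 0 (0 to 6) and 2 (0 to 11). The cause was not tested. Footprint depth, 86 to 925 member counts per library, limits what can be seen there.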
